A study of Rattus norvegicus with 14 samples.

Results

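The adipocyte genes Fabp4, Adipoq, Plin1, Cidec, Lpl, Lipe, Cfd, Lep, Pck1 and Cebpa were followed in the foreskin of newborn rats. They were chosen by name, as genes by which fat cells are known, and each was read from the brightest probe set annotated with its symbol alone. All 10 were measured, each on 1 probe set, among 14497 genes of the array. The samples came from Sprague Dawley pups on postnatal day 5. Their dams had received by gavage, on gestational days 16 to 20, either corn oil alone or flutamide, a drug that blocks the androgen receptor, at 5 mg/kg/day. There were 7 litters in each group, and each sample pooled 2 foreskins from littermates. Replicates are therefore litters, and pups within a pool could not be told apart. In these bulk pools fewer cells of a type and less RNA per cell cannot be told apart.

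Fat cells store triglyceride in a single large droplet and release it as fatty acids when fuel is short. Their identity is set by PPARG together with C/EBP factors, which switch on the genes of fat uptake, droplet coating, lipolysis and hormone secretion as one programme. Skin carries a layer of fat under the dermis, while the prepuce is a thin fold with loose connective tissue. The question was whether fat cell RNA differed between flutamide and corn oil litters, and whether the genes varied together from litter to litter, as they would if pools held unequal amounts of fat.

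Values are log2 intensities after RMA, so a difference of 1 would be a 2-fold change. Sample medians lay within 0.0735 of each other, and the spread (SD) of the values within an array ran from 1.48 in flutamide replicate 7 to 1.60 in corn oil replicate 1. Markers of the labelled tissue were bright, with mean log2 values of 12.3 for Krt10, a keratin of the upper epidermis, 9.85 for Krt14, a keratin of its basal layer, and 9.04 for Col1a1, a collagen of the dermis. The precision is limited by the number of arrays. No gene was called present or absent, and whether dim probe sets were above background was not tested.

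Adipocyte genes were dim in these arrays. The median of all genes tested was 5.89, and 8 of the 10 adipocyte genes lay below it. Adipoq was the dimmest, and 9.74% of the genes tested were dimmer still. The liver genes Alb and Ttr, for albumin and transthyretin, had means of 3.90 and 4.15. They were among the dimmer of 9 liver and kidney genes, of which G6pc1 was the brightest, at 5.39. Plin1, Lep, Pck1 and Adipoq had means below that of G6pc1, and the other adipocyte genes lay above it. For Adipoq, Plin1, Lep and Pck1 the fold intervals are limited by the lack of a test against background. The same limit holds for the slopes on Adipoq and on Plin1. Of the adipocyte genes Fabp4 was the brightest, with a mean of 6.10 and 56.3% of genes dimmer. A probe set's brightness depends on its own probes as well as on RNA, so these shares do not rank the genes by RNA level. Pparg, the master regulator of fat cells, had a mean of 5.05, and Ucp1, the uncoupling protein of brown fat, 4.71. Arrays in general compress differences at low signal.

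None of the 10 genes differed between the groups after adjustment over all genes. Fabp4, Cidec and Lpl had lower means in flutamide litters and Lep a higher one at an unadjusted p under 0.05 (limma), while the other 6 did not reach it. At an adjusted p under 0.05, limma called 0 of the 10, against 0.0069% of all genes tested. At an unadjusted p under 0.05 it was 4 of 10, or 40%, against 9.16% of all genes. Of these, 3 were lower, against 3.46% of all genes, and 1 was higher, against 5.7%. Means were lower in flutamide litters for 5 genes and higher for the other 5. The median difference was 0.0036 over the 10 genes and 0.0048 over all genes tested. No gene had groups that did not overlap, which occurred for 0.124% of all genes.

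**Figure D1:**
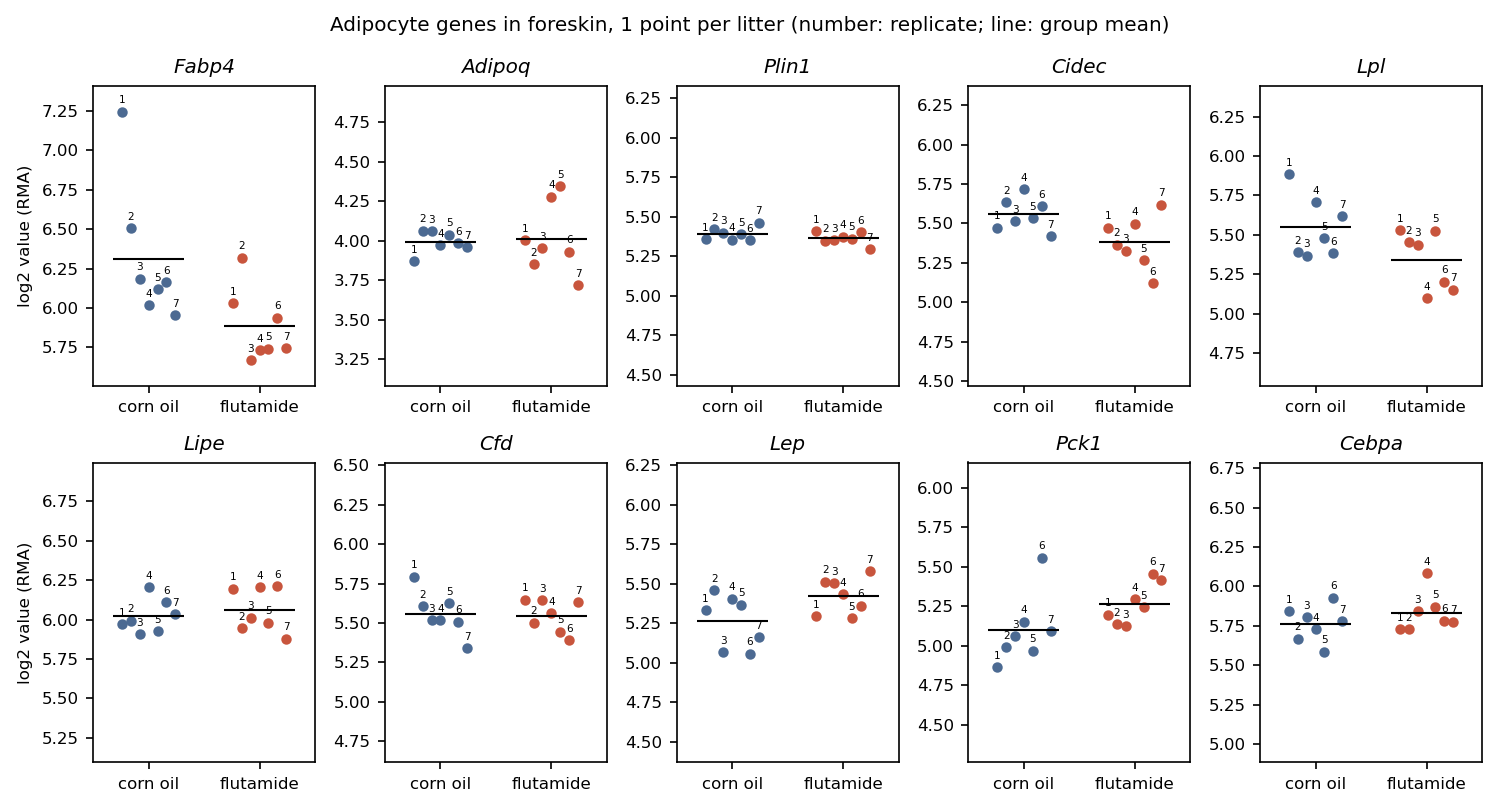
Log2 value of each adipocyte gene (vertical axes, all spanning the same number of log2 units) in 7 corn oil and 7 flutamide litters. Points are litters numbered by replicate, and the line is the group mean. Fabp4 has the widest spread, from 5.67 to 7.24, and Plin1 the narrowest, from 5.30 to 5.46.

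The secreted proteins of fat cells are described first. Adipoq encodes adiponectin, a hormone made almost only by adipocytes. Its log2 value ran from 3.87 through a median of 3.98 to 4.06 in corn oil litters, and from 3.72 through 3.95 to 4.34 in flutamide litters. Flutamide replicates 4 and 5, at 4.28 and 4.34, lay above every corn oil litter, and flutamide replicates 2 and 7, at 3.85 and 3.72, below every one. The means were 3.99 ± 0.07 (SD, n = 7) and 4.01 ± 0.23 (SD, n = 7). The difference of 0.019 (SE 0.08; limma adjusted p = 0.971) had a 95% confidence interval from 0.898-fold to 1.14-fold. The wider spread among flutamide litters was not tested.

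Lep encodes leptin, the hormone that reports fat stores to the brain. It ran from 5.06 through 5.33 to 5.46 in corn oil litters and from 5.28 through 5.43 to 5.58 in flutamide litters. Of the flutamide litters, 5 of 7 lay above the corn oil median, and corn oil replicates 3, 6 and 7 lay below all flutamide litters. Its difference was 0.16 (SE 0.07), 1.12-fold, with a limma p of 0.0463 that became 0.541 after adjustment.

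Cfd encodes adipsin, complement factor D, a protease that fat cells secrete. The corn oil litters ran from 5.34 through 5.52 to 5.79 and the flutamide litters from 5.39 through 5.56 to 5.65, so the flutamide range lay inside the corn oil range. The difference of -0.012 (SE 0.07; limma adjusted p = 0.980) was 0.027 without corn oil replicate 1, the highest litter.

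Proteins of fat uptake and of the lipid droplet come next. Lpl encodes lipoprotein lipase, which frees fatty acids from circulating lipoproteins and is also made in muscle and macrophages. Values ran from 5.37 through 5.48 to 5.89 in corn oil and from 5.10 through 5.44 to 5.53 in flutamide litters. Flutamide replicates 4, 6 and 7, at 5.10, 5.20 and 5.15, lay below every corn oil litter, and corn oil replicates 1, 4 and 7 lay above every flutamide litter. The difference was -0.20 (SE 0.09), or 0.868-fold, with a limma p of 0.0396 and an adjusted p of 0.523. Lpl had an r of 0.64 with the SD of values within each array, and the difference was -0.12 (limma adjusted p = 0.710) with that SD as a covariate. Whether the array spread has a part in it was not tested further.

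Fabp4 encodes the fatty acid binding protein aP2, abundant in fat cells and also present in capillary endothelium and macrophages. Its corn oil litters ran from 5.96 through 6.16 to 7.24, and its flutamide litters from 5.67 through 5.75 to 6.32. Corn oil replicate 1 stood above all others, and the next highest litter was corn oil replicate 2 at 6.51. In flutamide litters 6 of 7 values lay below the corn oil median. The group means were 6.31 ± 0.45 (SD, n = 7) and 5.88 ± 0.23 (SD, n = 7), a difference of -0.43 (SE 0.16), 0.742-fold, with a limma p of 0.0136 and an adjusted p of 0.416. Without corn oil replicate 1 the difference was -0.27 (SE 0.10; limma adjusted p = 0.526). With the SD of values within each array as a covariate it was -0.33 (SE 0.16; limma adjusted p = 0.610). The 95% confidence interval of Fabp4 over all litters, without a covariate, ran from 0.590-fold to 0.934-fold. It was the only one among the 10 genes that reached past a 1.5-fold change.

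Plin1 encodes perilipin 1, the coat protein of the adipocyte droplet. It was nearly constant, from 5.35 to 5.46 in corn oil and from 5.30 to 5.41 in flutamide litters. The difference was -0.028 (SE 0.05; limma adjusted p = 0.899), with an interval from 0.917-fold to 1.05-fold. Whether its probe set lay above background was not tested, which limits what the narrow interval shows about Plin1 RNA. Cidec encodes a droplet protein that fuses small droplets into large ones. Its values ran from 5.42 through 5.54 to 5.72 in corn oil and from 5.12 through 5.37 to 5.62 in flutamide litters. All flutamide litters but replicate 7 lay below the corn oil median, and replicates 2, 3, 5 and 6 lay below every corn oil litter. The difference of -0.18 (SE 0.07), 0.885-fold, had a limma p of 0.0252 and an adjusted p of 0.481. Cidec had an r of -0.53 with the array SD, and with it as a covariate the difference was -0.22 (limma adjusted p = 0.452).

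Enzymes of fat turnover and the regulator complete the set. Lipe encodes hormone-sensitive lipase, which releases stored fat. It ran from 5.91 to 6.21 in corn oil and from 5.88 to 6.21 in flutamide litters and differed by 0.040 (SE 0.07; limma adjusted p = 0.904). Pck1 encodes the cytosolic PEPCK, which serves in making glycerol phosphate for re-esterification in fat cells and glucose in liver and kidney. Its corn oil litters ran from 4.86 through 5.06 to 5.56 and its flutamide litters from 5.12 through 5.24 to 5.46. Every flutamide litter, 7 of 7, lay above the corn oil median, but corn oil replicate 6, at 5.56, lay above all of them. The difference was 0.17 (SE 0.09; limma adjusted p = 0.588), and 0.25 without corn oil replicate 6 (limma adjusted p = 0.363 over that fit). Cebpa encodes C/EBP alpha, a transcription factor of fat cells that is also present in liver and epidermis. It ran from 5.59 to 5.93 in corn oil and from 5.73 to 6.08 in flutamide litters, highest in flutamide replicate 4, and differed by 0.068 (SE 0.07; limma adjusted p = 0.797).

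**Figure D2:**
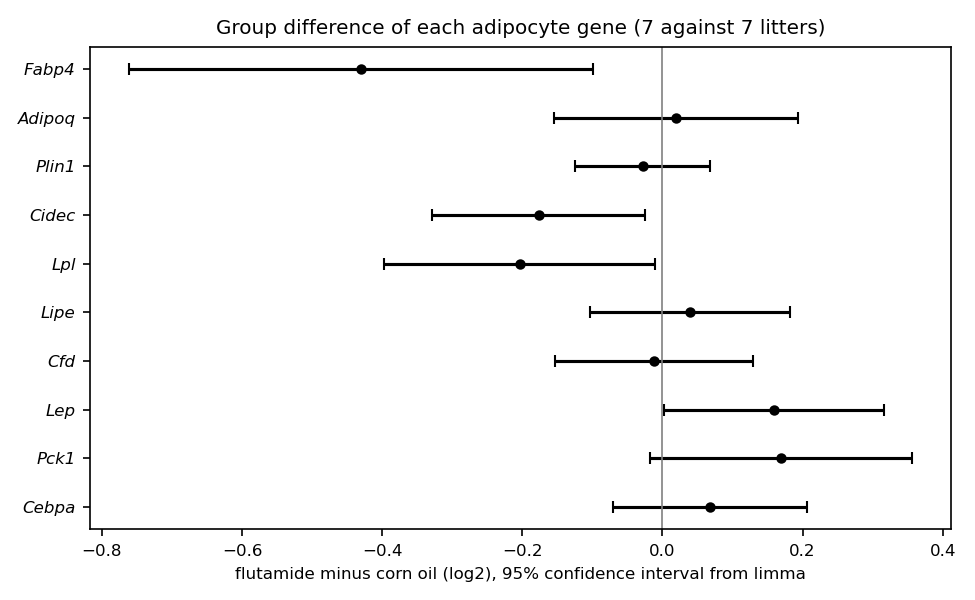
Difference of each adipocyte gene between flutamide and corn oil litters on the log2 scale (horizontal axis), with 95% confidence intervals from the limma fit. Intervals of Fabp4, Cidec, Lpl and Lep leave out 0 before adjustment, with Fabp4 at -0.43 the farthest from it, and no gene passed after adjustment over all genes.

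No shared pattern was seen among the adipocyte genes across litters. Each gene was taken relative to its group mean, and Pearson's r was computed over the 14 litters for all 45 pairs. These points share arrays and their normalisation, so r is given as a description. The median r over the 45 pairs was -0.068, with 19 pairs above 0, while the median over all pairs of genes tested was 0.005. The highest r was 0.55, for Fabp4 with Cfd, and the lowest -0.53, for Lpl with Pck1. For comparison, 90% of all gene pairs lay between -0.50 and 0.52. Only the pair of Fabp4 and Cfd exceeded 0.5, and it reached 0.86 within corn oil but -0.24 within flutamide litters (n = 7 each).

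Genes that are the most specific to fat cells gave no shared pattern either. Adipoq and Plin1 had an r of 0.35, Adipoq and Cidec -0.14, and Plin1 and Cidec -0.50. Adipoq and Lep, the 2 hormones, had an r of -0.36. Each gene's r with the mean of the other 9 ran from -0.49 for Pck1 to 0.41 for Cfd. Averaged over the 10 genes, corn oil litters had a level of 5.45 ± 0.06 (SD, n = 7). Flutamide litters had 5.41 ± 0.03 (SD, n = 7). It was highest in corn oil replicate 1, at 5.56, where Fabp4 was highest, and the mean of the 9 genes without Fabp4 was 5.38 there. Without Fabp4 the group means were 5.36 ± 0.04 and 5.36 ± 0.04 (SD, n = 7 each).

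The same measure was taken on lists of other cell types. The median r over pairs was 0.31 for 16 skeletal muscle genes, where 44 of 120 pairs exceeded 0.5, 0.29 for 8 keratinocyte genes, 0.27 for 13 macrophage genes and 0.25 for 10 dermal fibroblast genes. Other lists lay near 0 or below it, with 0.074 for smooth muscle, 0.061 for endothelium, -0.013 for sebaceous gland and -0.18 for 6 red blood cell genes. It was also 0.31 for 9 genes of liver and kidney, most of them dim, whose mean had an r of -0.73 with the SD of the values of each array. For skeletal muscle genes that r was 0.068, and for dermal fibroblast genes 0.73. No test was made between lists.

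**Figure D3:**
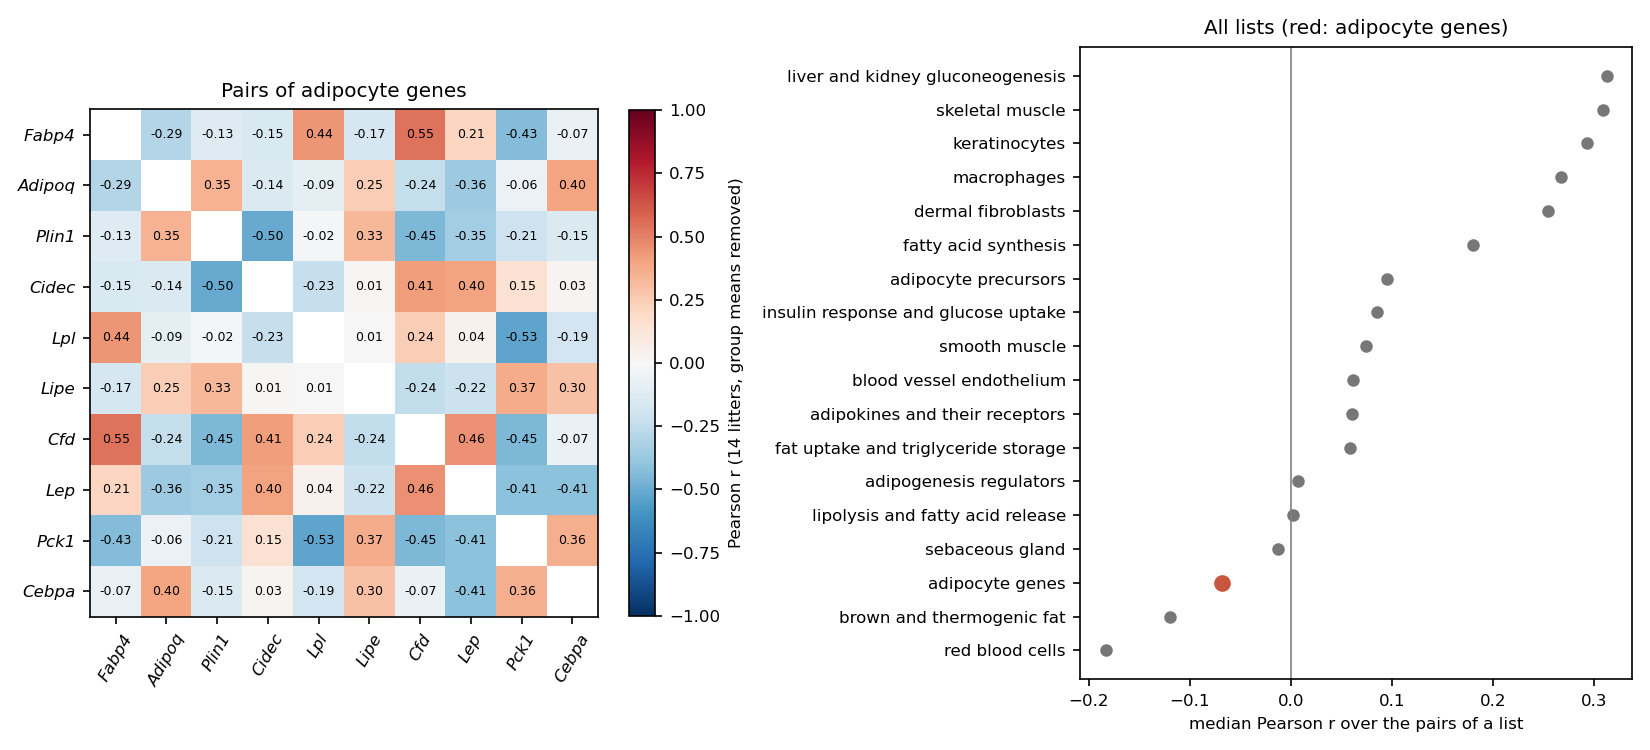
Left, Pearson's r over 14 litters, relative to group means, for each pair of adipocyte genes (colour scale and numbers). Right, the median r over the pairs of each gene list (horizontal axis), with adipocyte genes in red at -0.068 and skeletal muscle genes at 0.31.

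A fit across all genes asked which of them followed Adipoq, with the group as a term. Of the other 9 adipocyte genes, limma called 0 at an adjusted p under 0.05, against 0.0069% of all 14496 genes, and 0 at an unadjusted p under 0.05, against 4.86%. The slopes were positive for 3 of the 9, which were Plin1, Lipe and Cebpa. Pearson's r with Adipoq ran from -0.36 for Lep (permutation p = 0.145, Spearman's rho -0.31, permutation p = 0.253) to 0.40 for Cebpa (permutation p = 0.207, rho 0.22, permutation p = 0.461). Without flutamide replicates 4 and 5, the 2 litters farthest from the median of Adipoq, the r of Cebpa was -0.27 and that of Lep -0.33. For Plin1, r was 0.35 (permutation p = 0.240, rho 0.40, permutation p = 0.168) and 0.63 without those litters. The other r values lay between -0.29 and 0.25, with permutation p-values from 0.174 to 0.801. After adjustment over all genes, the limma p was 1.00 for each of the 9 relations. With Plin1 in place of Adipoq, limma called 0 of 9, and 0 at an unadjusted p under 0.05 against 5.11% of genes. Plin1 hardly varied between litters, with an SD within groups of 0.04. Slopes on it were therefore imprecise, with SEs from 0.88 for Cfd to 2.19 for Fabp4, and this fit could show little.

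The single gene called in the Adipoq fit was Vom2r8, a vomeronasal receptor gene with a low mean of 2.75, whose slope was negative (limma adjusted p = 0.0270). The count of calls was 0 when any of corn oil replicates 2, 5 and 7 or flutamide replicates 4, 5 and 7 was left out, and 4 without corn oil replicate 1. Uchl1 and Ly6h came next, with positive slopes and a limma adjusted p of 0.448 each. The genes with the highest r to the mean of the 10 adipocyte genes over the 14 litters were Ift43 at 0.87, Zmat2 at 0.86, Rfxap and Tmsb15b2 at 0.84, Leo1 at 0.83, Htr2a and Rasgrp3 at 0.81, Eif4e3 and Parp9 at 0.80 and Mdp1 at 0.79. The lowest were Snhg11 at -0.92, Tprn at -0.89, Slc7a3 and Slc44a3 at -0.86 and Cdk5r1 at -0.85. They include no gene of the 8 other lists of fat cell function. Those lists hold only 111 of the 14497 genes tested, so finding none among so few named genes says little.

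Those lists held 111 other genes of the fat cell programme. Between the groups limma called 0 of them, and 13 had an unadjusted p under 0.05, which is 11.7% against 9.16% of all genes, 5 lower and 8 higher in flutamide litters. Their median difference was -0.0004. The smallest p among the 5 lower genes was that of Ebf3, at -0.24 (limma adjusted p = 0.368). Among the 8 higher genes it was that of Itln1, at 0.24 (limma adjusted p = 0.375). Klf15, Adora1 and Mogat1, at 0.16, 0.20 and 0.21, were also among the higher. Pparg, which was not among the 13, differed by -0.13 (SE 0.08; limma adjusted p = 0.645). Cd36, a fatty acid transporter of fat cells, endothelium and macrophages, differed by -0.25 (SE 0.11; limma adjusted p = 0.523). Dio2, a thyroid hormone activating enzyme of brown fat, differed by -0.21 (SE 0.10; limma adjusted p = 0.541), and Ppargc1b, a coactivator of mitochondrial genes, by 0.16 (SE 0.07; limma adjusted p = 0.501).

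In the Adipoq fit limma called 0 of the 111 genes, and 8 had an unadjusted p under 0.05, or 7.21% against 4.86% of all genes. Within lipolysis the smallest p belonged to Aqp7, the glycerol channel of fat cells, with a slope of 0.72 (SE 0.23) log2 units per log2 unit of Adipoq. Within triglyceride storage it was Dgat2, which makes triglyceride, with a slope of 0.56 (SE 0.21). Dio2 had a slope of 0.81 (SE 0.26). Negative slopes led among insulin response genes with Cavin1, a coat protein of caveolae, at -0.87 (SE 0.26), and among regulators with Ppargc1b at -0.51 (SE 0.20). The lowest limma adjusted p among the 111 was 0.827. In the other lists the smallest p belonged to Slc25a1, the mitochondrial citrate carrier (slope -0.43), Cdh13, a receptor for adiponectin (slope -0.49), and Sfrp2, a secreted Wnt modulator of precursors (slope -0.44). Each had a limma adjusted p of 1.00.

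The genes with the next smallest p-values had slopes of both signs over the lists. Slopes were positive for Rxra (0.34) and Stat5a (0.38) among regulators, Slc27a1 (0.38) in fat uptake, Cav2 (0.28) in the insulin response and C1qtnf7 (0.36) and Nampt (0.34) among adipokines. They were negative for Dgat1 (-0.60), the other triglyceride-making enzyme, Adrb3 (-0.33) and Npr1 (-0.24) in lipolysis, Scd (-0.58) and Elovl5 (-0.41) in fatty acid synthesis, and Pik3r1 (-0.24) in the insulin response. Negative slopes were also those of Ppara (-0.42) and Otop1 (-0.35) in brown fat and Pdgfrb (-0.40) and Pi16 (-0.36) in precursors. All had a limma adjusted p of 1.00. Dgat1 and Dgat2, which catalyse the same step, thus had slopes of opposite sign. Over whole lists, 1 of 13 fatty acid synthesis genes had a positive slope, 5 of 17 precursor genes and 11 of 19 regulators. It was positive for 7 of 12 adipokine genes, 6 of 16 in fat uptake and 5 of 11 in brown fat. In lipolysis it was positive for 4 of 14 and in the insulin response for 2 of 9. The share of positive slopes over all genes was not computed.

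Lists of other cell types are given beside these. Among 16 skeletal muscle genes, 13 had a positive slope and 4 an unadjusted p under 0.05, with none passing after adjustment. The 4 were led by Tnni2, a fast muscle troponin, with a slope of 1.01 (limma adjusted p = 0.839). Myl11, a myosin light chain, had 1.79, and Myh3, the embryonic myosin, 1.11 (limma adjusted p = 0.944 each). The last of the 4, the myosin gene Myh1, had a negative slope of -0.62 (SE 0.25). The r of Adipoq with list means over the 14 litters ran from -0.71 for 8 sebaceous gland genes to 0.44 for the skeletal muscle genes, and was -0.59 for fatty acid synthesis and -0.074 for fat uptake and triglyceride storage. The part of muscle or gland in the Adipoq values was not tested.

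Fabp4 had the widest spread of the adipocyte genes, with corn oil replicate 1 or without it. Its SD within groups, pooled over both, was 0.36, and 99.0% of all genes tested were less variable. Without corn oil replicate 1 it was 0.21, and 90.1% were less variable. The median gene had an SD of 0.14, and Lpl, Pck1, Adipoq and Lep also exceeded it, at 0.19, 0.18, 0.17 and 0.14. Plin1, at 0.04, was among the least variable genes of the array, with 0.0483% of genes below it.

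The r values of Fabp4 were highest with lists of other cell types and of precursors. Over the 14 litters, relative to group means, its r was 0.78 with the mean of 13 macrophage genes (permutation p = 0.0161) and 0.72 with 17 genes of adipocyte precursors (permutation p = 0.0273). It was 0.67 with 14 endothelium genes (permutation p = 0.0371) and 0.65 with 6 red blood cell genes (permutation p = 0.0585). Over the 18 relations computed, none passed after Benjamini-Hochberg adjustment, with a lowest adjusted permutation p of 0.223. The ranks gave less, with a Spearman's rho of 0.43 for macrophages (permutation p = 0.125), 0.18 for precursors (permutation p = 0.571), 0.24 for endothelium (permutation p = 0.427) and 0.33 for red blood cells (permutation p = 0.270). Without corn oil replicate 1 alone, the r values were 0.44 for macrophages, 0.31 for precursors, 0.21 for endothelium and 0.15 for red blood cells. Without corn oil replicates 1 and 2, the litters farthest from the median of Fabp4, they were 0.51, 0.55, 0.42 and 0.16 in that order. Within flutamide litters alone they were 0.58, 0.71, 0.65 and 0.15 (n = 7). Leaving out corn oil replicate 1 thus lowered all 4 r values. Within flutamide litters, which do not include it, r was above 0.5 for macrophages, precursors and endothelium but not for red blood cells. These lists were not the highest there, since dermal fibroblasts and smooth muscle had an r of 0.78 each. Those 2 lists had 0.48 and 0.19 over the 14 litters, and 0.37 and -0.12 within corn oil litters. Without corn oil replicate 1 they had 0.39 and 0.56. The precursor mean itself had an r of 0.75 with the array SD, the endothelium mean 0.53 and the macrophage mean 0.39.

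Among the macrophage genes, 12 of 13 had an r above 0 with Fabp4 and 6 of 13 above 0.5. C1qc, a complement subunit of tissue macrophages, reached 0.85, Csf1r, the receptor for the macrophage growth factor, 0.82, and Cd68, a lysosomal protein, 0.78. Of the endothelium genes 10 of 14 were above 0 and 3 of 14 above 0.5, led by Emcn, the capillary protein endomucin, at 0.79. Over all pairs of genes tested, 50.6% had an r above 0, and percentile 95 of r was 0.52. The share of all genes with such r values with Fabp4 itself was not computed, so whether these counts stand out was not tested. The macrophage mean ran from 5.85 to 6.16 in corn oil and from 5.79 to 6.04 in flutamide litters, and the endothelium mean from 6.44 to 6.65 and from 6.40 to 6.54. Corn oil replicate 1 was the highest litter on both and also had the widest array SD, with which Fabp4 had an r of 0.42 (permutation p = 0.167). With the macrophage mean as a covariate, the Fabp4 difference between the groups was -0.32 (SE 0.11; limma adjusted p = 0.472), and with the endothelium mean -0.21 (SE 0.14; limma adjusted p = 0.716). The part of these cells in the Fabp4 values was not tested further.

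**Figure D4:**
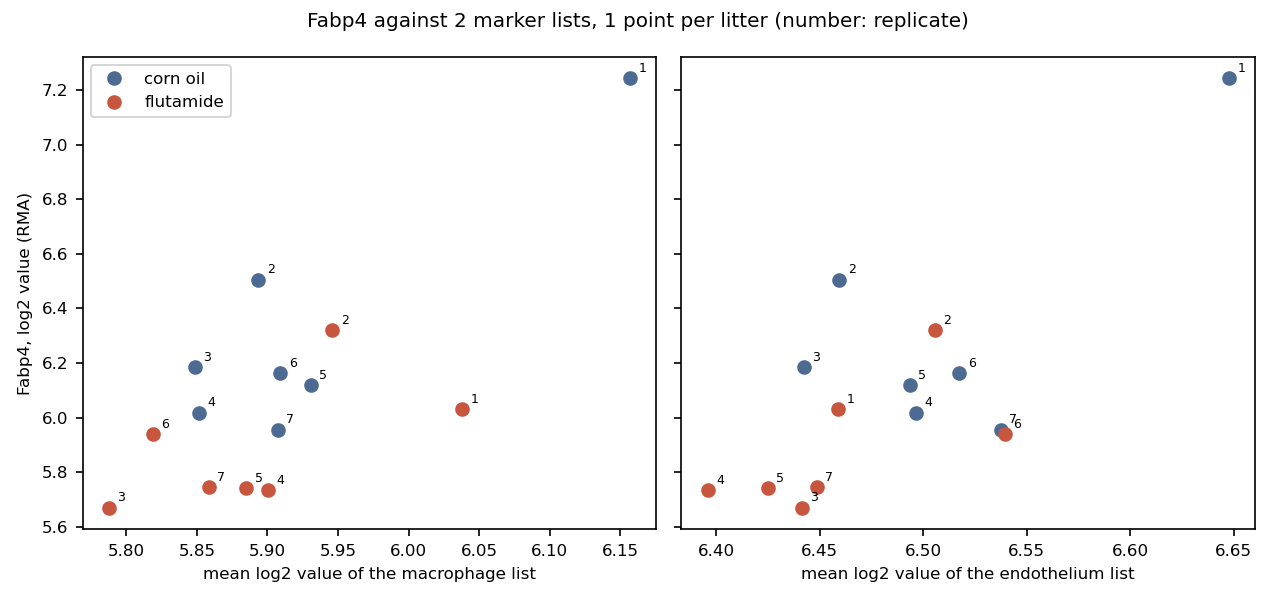
Log2 value of Fabp4 (vertical axis) against the mean log2 value of 13 macrophage genes (left) and 14 endothelium genes (right), 1 point per litter with its replicate number. Corn oil replicate 1 lies highest on all 3 measures, at 7.24 for Fabp4, 6.16 for macrophages and 6.65 for endothelium.

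With Fabp4 in place of Adipoq in the fit across all genes, limma called 0 of the other 9 adipocyte genes, and 0 at an unadjusted p under 0.05 against 7.39% of genes. It called 1 gene, or 0.0069%, which was Clic2, a chloride channel family member, with a slope of 0.64 (SE 0.09; limma adjusted p = 0.0116). Without corn oil replicate 1 that fit called 0 genes. Of the 111 fat cell programme genes, 15 had an unadjusted p under 0.05 in this fit, or 13.5%, and none passed. Of the 15, r with Fabp4 was positive for 9 and negative for 6. The highest r was 0.78 for Zfp423, a factor of preadipocyte commitment, followed by 0.72 for Mgp, a matrix protein, 0.69 for Angptl4, an inhibitor of lipoprotein lipase, and 0.68 for Dlk1, a preadipocyte protein. The lowest were -0.65 for Agpat2, an enzyme of triglyceride synthesis, and -0.60 for Acsl1, which activates fatty acids, followed by -0.59 for Nr1h3, -0.58 for Adora1, -0.55 for Mogat1 and -0.54 for Trarg1.

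Promoter windows were read for the factor that one of the 10 genes encodes. C/EBP proteins bind sites of the form TTGCNNAA, and RefSeq promoter windows of 300 bases, 250 before and 50 after the start in the GRCr8 assembly, matched 7 of the 10 genes, all but Fabp4, Lpl and Lipe. Searched on both strands, TTGCNNAA was in 3 of the 7 windows, and in 10.5% of 27457 windows of the same length. The windows of Lep (chr4:58626288-58626587, plus strand), Plin1 (chr1:143086099-143086398, minus strand) and Cidec (chr4:148137066-148137365, minus strand) are printed 5′ to 3′ along the gene, with the match in capitals, because they are the ones to set beside Cebpa.
Lep: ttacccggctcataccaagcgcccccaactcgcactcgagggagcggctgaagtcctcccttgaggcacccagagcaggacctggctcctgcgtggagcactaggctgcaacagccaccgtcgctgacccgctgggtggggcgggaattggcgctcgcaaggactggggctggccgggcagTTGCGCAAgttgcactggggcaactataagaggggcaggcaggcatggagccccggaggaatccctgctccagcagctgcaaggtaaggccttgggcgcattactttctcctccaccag
Plin1: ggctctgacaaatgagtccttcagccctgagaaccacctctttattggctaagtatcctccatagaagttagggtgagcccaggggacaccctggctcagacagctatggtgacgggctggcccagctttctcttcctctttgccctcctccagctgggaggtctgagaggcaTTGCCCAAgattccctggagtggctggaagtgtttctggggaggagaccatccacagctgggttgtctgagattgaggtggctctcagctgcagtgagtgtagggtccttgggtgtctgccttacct
Cidec: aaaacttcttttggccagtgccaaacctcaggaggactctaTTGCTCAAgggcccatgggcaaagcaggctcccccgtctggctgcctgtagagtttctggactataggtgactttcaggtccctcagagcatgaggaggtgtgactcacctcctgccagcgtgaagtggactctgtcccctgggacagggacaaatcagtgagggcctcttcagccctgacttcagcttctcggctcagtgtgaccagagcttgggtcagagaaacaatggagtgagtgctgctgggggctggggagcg
The Lep match is TTGCGCAA, which reads the same on both strands, and begins at base -69 relative to the start. Those of Plin1 and Cidec, TTGCCCAA and TTGCTCAA, begin at -77 and -209. Over the 14 litters, Cebpa had an r of -0.41 with Lep, -0.15 with Plin1 and 0.03 with Cidec. The DR1 element of PPARG and RXR, AGGTCA repeated with 1 base between the copies, was in none of the 7 windows and in 0.0583% of all windows, and with 1 letter changed in none and in 0.463%. AGGTCA alone was in 1 of 7, that of Pck1, against 15.7%, and TATAAA in 1 of 7, that of Cebpa, against 14.3%. A match is a run of letters in this window and not a measured binding site.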

How the data were processed

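Affymetrix Gene 1.0 ST arrays gave the log2 values that the authors deposited for 28826 probe sets in 14 samples, with RMA named in the submitters' processing notes. Its version, its level of summary and the build were not given in the sources used here. That the scale is log2 follows from a range of 0.669 to 13.8. RMA normalises between arrays, so a change shared by most genes is removed.

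Probe sets were named with the platform annotation, updated by gene number through RefSeq's GRCr8 table, which matched 14471 of 14497 genes. The 15209 probe sets with 1 symbol were kept, and 306 with several and 13311 with none or not listed were left out. For genes with several probe sets, the brightest was used.

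Groups were compared, and slopes on Adipoq fitted with the group as a term, with limma 3.58.1 in R 4.3.3 (lmFit, eBayes), as two-sided tests. P-values were adjusted by Benjamini-Hochberg across every gene in the fit, at 0.05. Correlations used values relative to group means, with 100000 two-sided permutations within groups (numpy 2.4.6). Both fits were tested on simulated data. Whether litters differ beyond the array's own error was not separable, since each was measured once.

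The adipocyte genes and all 17 lists were chosen with earlier results of these data known. Genes outside them are named by fixed rules: the ends of the ranking by r with the mean of the adipocyte genes, passing over predicted and chemosensory receptor genes, and, in each list of fat cell function, the 3 with the smallest p in the Adipoq fit. Clic2, Vom2r8, Uchl1, Ly6h and the genes named for their r with Fabp4, for their group difference or as tissue markers were chosen after their values were seen. Alternatives changed the probe set rule, features, scaling, filter, variance model, weights, covariates, anchor and litters. Covariates from macrophage and endothelium lists, leaving Fabp4 out of the pairs, and the Fabp4 fit and spread without corn oil replicate 1 were added after the data were seen. Both groups carry the same replicate numbers, which no label ties to a pairing.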

Additional observations from a re-analysis of the deposited data

Results flagged for a closer look

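In groups of 7 litters, a litter far from the others was looked for among the 10 adipocyte genes, their mean and the 17 list means. This gave 6 such values in 56 groups, from 4 litters and with corn oil replicate 1 in 3 of them, where chance flags about 1 group in 20. Fabp4 was 7.24 in corn oil replicate 1, against 5.96 to 6.51 in the other corn oil litters. The same litter was apart on the macrophage list, with a mean of 6.16 against 5.85 to 5.93, and on the adipocyte precursor list, with 7.50 against 7.30 to 7.38. Pck1 was 5.56 in corn oil replicate 6, against 4.86 to 5.15 in the others. Cebpa was 6.08 in flutamide replicate 4, against 5.73 to 5.87. The list of fat uptake and triglyceride storage had a mean of 6.12 in corn oil replicate 2, below the 6.25 to 6.28 of the others.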

How the results depend on the processing

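Under all alternatives run, none of the 262 group differences and none of the 261 slopes of the adipocyte genes had an adjusted p under 0.05 (limma), with lowest adjusted p-values of 0.254 and 0.693, and the count of adipocyte genes following the anchor was 0 throughout. The sign turned in 10 of the differences and 24 of the slopes, all uncalled, and the cause was not tested. For differences with single litters left out, Adipoq ran from -0.036 to 0.068 and Cfd from -0.048 to 0.027. Adipoq was -0.065 with the endothelium mean as a covariate. Cfd was 0.0025 with the endothelium mean, 0.014 with the macrophage mean, and 0.013 when both corn oil replicate 1 and flutamide replicate 7 were left out. The slopes on Adipoq with single litters left out ran from -0.25 to -0.078 for Cfd, -0.30 to 0.18 for Cidec, -0.0063 to 0.45 for Lipe, -0.51 to 0.17 for Lpl and -0.18 to 0.13 for Pck1. In corn oil litters alone the slopes were -0.81 for Cebpa, 0.44 for Cidec, -0.45 for Lipe and 0.25 for Pck1, and in flutamide litters alone 0.13 for Lpl. With both those litters left out they were 0.021 for Cfd, 0.14 for Cidec, -0.041 for Lipe and -0.0017 for Plin1. Quantile normalization gave 0.12 for Lpl. On Fabp4 in place of Adipoq the slopes were -0.023 for Cebpa, 0.19 for Cfd, 0.086 for Lep, -0.059 for Lipe, 0.24 for Lpl and -0.014 for Plin1, and on Plin1 -0.43 for Cebpa.

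Over all genes, the 1 call between the groups became 2 with the array SD as a covariate, with a variance trend or among genes above the median level. It became 0 with the mean of the adipocyte genes as a covariate or with both those litters left out, and between 0 and 1 when any single litter was removed. The 1 call in the Adipoq fit became 0 over all probe sets, within either group, with a variance trend, among genes above the median level, with Plin1 as anchor, with both those litters left out, and on Fabp4 without corn oil replicate 1. The SD of Fabp4 within groups was 0.21 without corn oil replicate 1. Removing single litters gave 0 to 4 calls, 4 of them without corn oil replicate 1. The median difference of the adipocyte genes lay between -0.020 and 0.026 on removing single litters and was -0.20 among genes above the median level, where only Fabp4 and Lipe are left. The median r over pairs then lay between -0.11 and -0.037.

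With the replicate number as a block, calls over all genes were 0 between the groups and 0 in the Adipoq fit, the median r over pairs was -0.17, and the Pck1 slope was 0.12. The lowest limma adjusted p of the 262 differences, 0.254, was that of Fabp4 with this block, where its difference was -0.43 (SE 0.11). Same-numbered litters had deviations over all genes with r from -0.07 to 0.15, over 0.1 in 1 of 7 pairs. No label says whether they share more than a number.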
